A study of Mus musculus with 30 samples.

Results

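The Wnt genes described here are the rows of the count table whose symbols belong to the Wnt, Fzd, Sfrp and Dkk families, together with Axin2, Lef1, Sp5 and Nkd1. They were chosen by symbol and by no cut on a measured value, though with earlier results of these data known. They number 41 of the 25400 genes in the table. The group holds 19 Wnt ligands, 10 Frizzled receptors, 4 secreted Frizzled-related proteins (Sfrp), 4 Dickkopf proteins (Dkk) and 4 target and feedback genes. Of these, 39 passed the filter on low counts, while Wnt8b (at most 0.332 CPM, read counts scaled to library size) and Dkk4 (at most 0.238 CPM) did not and were not tested. The genes were followed by sequencing polyadenylated RNA from neuronal progenitor cells (NPCs) that mouse embryonic stem cells (ESCs) had formed by day 8 of differentiation, in 24 libraries from 8 lines with 3 libraries each.

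All 8 lines come from the HA36CB1 ESC line, of mixed 129 and C57BL/6 background. WT cells carried no deletion, and Mbd3 KO cells had Mbd3 cut by CRISPR-Cas9. The other 6 lines all lacked endogenous Mbd3 as well and each expressed 1 construct from the CAG promoter at the same recombination site. The constructs were MBD3a (the full-length MBD3 isoform), MBD3ΔMBD (MBD3 without its methyl-CpG binding domain, labelled Mbd3a_delMBD), MBD2a (the full-length MBD2 isoform), MBD2aΔGR (MBD2a without its glycine and arginine rich repeat, labelled Mbd2a_delGR), MBD2aR181C (an arginine to cysteine change in the methyl-CpG binding domain) and MBD2t (an isoform without the C-terminal coiled coil). For MBD2aR181C, the study's text and the column headers number that residue differently from the label used here. Replicate libraries came from separate clones, except that the 3 MBD2t libraries were repeats of 1 clone. P-values of MBD2t comparisons therefore cover no spread between MBD2t clones. All 24 libraries entered 1 fit, so the spread used for each gene was shared by the 8 lines, including these repeats. Within a line, libraries are called 1 to 3 in the order of the columns, which is only a name.

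MBD2 and MBD3 are alternative subunits of the NuRD chromatin remodelling complex, and the study asked which of their variants can replace MBD3 during differentiation. Wnt ligands are secreted, lipid-modified proteins that bind Frizzled receptors with the co-receptors Lrp5 and Lrp6, which stabilises β-catenin and lets it act with TCF/LEF factors on target genes. Sfrp proteins bind Wnts outside the cell, and Dkk proteins other than the divergent Dkk3 bind the co-receptors. Axin2 and Nkd1 are induced by the pathway and damp it. In the developing nervous system Wnts of the dorsal midline pattern the neural tube and sustain progenitor division, while in ESCs Wnt signalling supports self-renewal and, at the exit from pluripotency, mesoderm and endoderm formation.

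The libraries held between 27993858 and 49392806 counts on genes, so that 3 counts corresponded to 0.0607 to 0.115 CPM. Mbd3 was at 149 to 157 CPM in WT and at 34.2 to 73.8 CPM in Mbd3 KO, where reads outside the cut exons can remain. Mbd2 reads were at 64.2 to 70.9 CPM in Mbd3 KO, 253 to 325 CPM in MBD2aR181C, 280.3 to 700.2 CPM in MBD2aΔGR and 335 to 356 CPM in MBD2t, but only at 67.0 to 87.2 CPM in the libraries labelled MBD2a. The latter did not differ in Mbd2 from Mbd3 KO by the call rule used here (0.26 ± 0.21 (SE) on the log2 scale, adjusted p = 0.508 by edgeR), so that from these counts alone an effect of the protein and a low level of its mRNA cannot be told apart in comparisons with the libraries labelled MBD2a. Protein amounts, which the study examined by Western blot in ESCs, were not analysed here. Of the markers listed for neural progenitors, 9 were in the table and summed to 1494 to 2164 CPM in WT against 157 to 247 CPM in Mbd3 KO. Chromosome 1 genes had a median log2 deviation from the other libraries of their line of -0.35 in Mbd3 KO library 1 and of -0.39 in library 3 labelled MBD2a, and MBD2aΔGR library 3 had 17232 CPM on 10 primitive and parietal endoderm markers against 693 to 847 CPM in WT. The chromosome 1 deviations do not tell whether the named libraries or the others of their line differed from WT. Counts are also given without the 3 libraries named, a choice made after seeing the data. WT library 3 and MBD2aR181C library 2 were kept there. They held the highest sums of the 8 pluripotency markers in their lines (26.0 to 180 CPM in WT, 31.0 to 344 CPM in MBD2aR181C). The sums in Mbd3 KO were 358 to 1083 CPM, with the highest in library 1.

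In WT NPCs the most abundant of these transcripts, per kilobase of exon, coded for receptors and soluble inhibitors. Fzd2 stood at 42.3 ± 6.91 CPM per kb (SD, n = 3), followed by Sfrp1 at 41.6 ± 7.62, Fzd10 at 38.5 ± 13.3, Sfrp2 at 33.6 ± 5.75, Fzd7 at 29.2 ± 4.62, Fzd3 at 27.3 ± 8.14 and Wnt1 at 21.8 ± 5.98 CPM per kb. Neighbours in this order lay within their spread. In Mbd3 KO the order was led by Fzd7 at 29.3 ± 5.12 CPM per kb and Fzd2 at 19.5 ± 2.69, with Dkk3 at 11.8 ± 0.192, Sfrp1 at 11.6 ± 6.25, Wnt6 at 11.5 ± 7.84 and Wnt7b at 11.4 ± 4.09 CPM per kb. Wnt1, the most abundant ligand per length in WT, was at 0.424 ± 0.111 CPM per kb in Mbd3 KO.

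The first comparison asked how the loss of MBD3 changed the pathway's genes. In Mbd3 KO, the dorsal neural ligands Wnt1 and Wnt3, 6 of 10 receptors, 3 of 4 Sfrp genes and 3 of 4 target genes were lower than in WT. The genes that were higher were 5 other ligands, the receptors Fzd4 and Fzd5 and the Dickkopf genes Dkk1 and Dkk3. A gene was called at an adjusted p under 0.05 and a log2 fold change above 1 or below -1. By this rule 9 of the 39 Wnt genes were higher and 14 were lower, beside 19.6% and 14.2% of all 16582 genes tested. The median log2 fold change was -0.62 over the 39 genes and -0.03 over all genes, and the median absolute value was 1.30 against 0.64. Where the groups of a called gene are said below not to overlap, this only describes its values and adds no support to the call. How often groups did not overlap over all genes is not given. In the same comparison, 9 of 9 neural progenitor markers were called lower, 8 of 8 pluripotency markers higher and 8 of 8 trophoblast markers higher (summed 647 to 858 CPM against 26.4 to 56.9 CPM in WT), and 1 of 10 endoderm markers was higher and 3 of 8 mesenchyme markers lower. No marker of these lists was at 0 in every library of either line. The part of these cell types in the Wnt gene values was not tested, and in such bulk samples fewer cells of a type and less RNA per cell cannot be told apart.

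**Figure D1:**
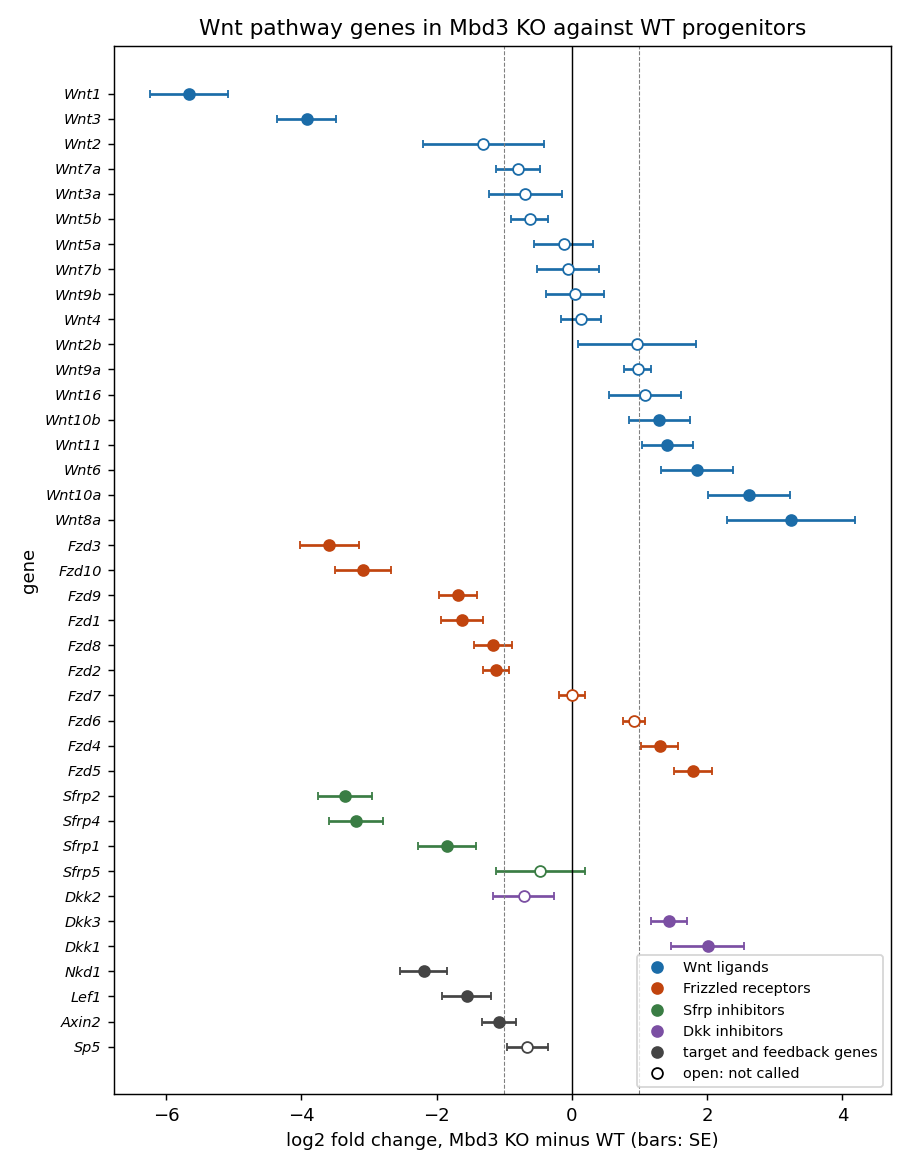
Log2 fold change of the 39 tested Wnt genes in Mbd3 KO against WT NPCs (x axis, bars are the SE from edgeR), with genes grouped by class on the y axis. Filled points were called. Wnt1 lies farthest to the left at -5.66 and Wnt8a farthest to the right at 3.24, and the receptors, the Sfrp genes and the targets lie mostly left of 0.

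Among the ligands, 5 of 18 were higher and 2 of 18 were lower in Mbd3 KO. Wnt1, which patterns the midbrain and the dorsal neural tube, stood at 60.4, 60.2 and 35.6 CPM in WT, against 0.715, 1.22 and 1.11 CPM in Mbd3 KO. The lowest WT library was far above the highest Mbd3 KO library (log2 fold change -5.66 ± 0.58 (SE), adjusted p = 3.94e-07). Wnt3, a ligand of the canonical, β-catenin dependent branch, had 10.1, 9.82 and 7.40 CPM in WT and 0.429, 0.730 and 0.608 CPM in Mbd3 KO (log2 fold change -3.92 ± 0.43 (SE), adjusted p = 8.44e-07). Its groups did not overlap either, and both genes kept a log2 fold change of -3.73 or lower under every alternative run.

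The ligands that were higher in Mbd3 KO started from low levels in WT. Wnt8a, a ligand of the early gastrula, had 0.0537, 0.0275 and 0.560 CPM in WT and 4.55, 1.24 and 0.846 CPM in Mbd3 KO (log2 fold change 3.24 ± 0.95 (SE), adjusted p = 0.00605), with the highest level in Mbd3 KO library 1. Without that library the log2 fold change was 2.24 and the call was lost (adjusted p = 0.0683). Wnt11, which acts mostly outside the β-catenin branch, had 5.05, 4.57 and 3.53 CPM in WT and 8.32, 13.2 and 13.4 CPM in Mbd3 KO, with no overlap (log2 fold change 1.41 ± 0.38 (SE), adjusted p = 0.00342).

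Wnt6 and Wnt10a, which are neighbours on chromosome 1, were high in the same Mbd3 KO libraries. Wnt6 had 5.34, 7.62 and 7.04 CPM in WT and 5.20, 31.9 and 34.5 CPM in Mbd3 KO (log2 fold change 1.84 ± 0.53 (SE), adjusted p = 0.00594). Wnt10a had 0.429, 0.688 and 0.243 CPM in WT and 0.257, 3.96 and 3.89 CPM in Mbd3 KO (log2 fold change 2.62 ± 0.60 (SE), adjusted p = 0.00111). For both, Mbd3 KO library 1 lay below or within the WT range and libraries 2 and 3 lay far above all WT libraries. Chromosome 1 genes had median log2 deviations from the other libraries of the line of -0.35, 0.08 and 0.27 in libraries 1 to 3. These values do not tell which of the libraries differed from WT. Without library 1 the log2 fold changes were 2.34 for Wnt6 and 3.15 for Wnt10a. Off chromosome 1, Wnt2b (chromosome 3, not called) had 0.972, 18.8 and 17.4 CPM in Mbd3 KO, while Wnt8a (chromosome 18) was highest in library 1. Wnt2b was named here after its values were seen. The part of the chromosome 1 difference was not tested.

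The other 11 tested ligands were not called in Mbd3 KO, with log2 fold changes from -1.31 for Wnt2 to 1.09 for Wnt16. Wnt9a (0.97, adjusted p = 0.000446) and Wnt7a (-0.79, adjusted p = 0.0427) passed the p threshold but not the fold change threshold. Wnt7b, at 59.1, 58.6 and 39.1 CPM in WT and 71.3, 39.4 and 40.6 CPM in Mbd3 KO, and Wnt4, at 35.2, 28.5 and 21.4 and 15.8, 35.7 and 42.3 CPM, were well expressed in both lines and their groups overlapped. Wnt2b, Wnt3a, Wnt5a, Wnt5b and Wnt9b had log2 fold changes between -0.69 and 0.96 with adjusted p-values from 0.0553 to 0.931. Reads on Wnt5a, Wnt7b, Wnt11, Axin2 and Sfrp2 are uncertain where an exon of an annotated gene overlaps on the other strand. The strand setting of the counting is not given in the sources used here. The gene that overlaps Wnt5b on the other strand shares no exon bases with it.

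Several ligand genes lie side by side, and the members of a pair did not always move together. Wnt1 and Wnt10b are divergent neighbours on chromosome 15, separated by 11706 bp with no other gene of the table between them. Wnt10b had 3.22, 2.83 and 2.05 CPM in WT and 4.80, 7.99 and 6.96 CPM in Mbd3 KO (log2 fold change 1.30 ± 0.46 (SE), adjusted p = 0.0197), so that it was higher where Wnt1 was lower. Wnt6 and Wnt10a, 6196 bp apart on chromosome 1, were both higher. Wnt3 was lower while Wnt9b, 24328 bp away on chromosome 11, had a log2 fold change of 0.05, and Wnt3a and Wnt9a, 16175 bp apart on chromosome 11, were both not called. The plot of neighbouring ligand genes shows that the libraries with low Wnt1 include the Mbd3 KO, MBD2t and MBD2a labelled ones, and that Wnt10b was highest in MBD2t and Mbd3 KO.

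**Figure D2:**
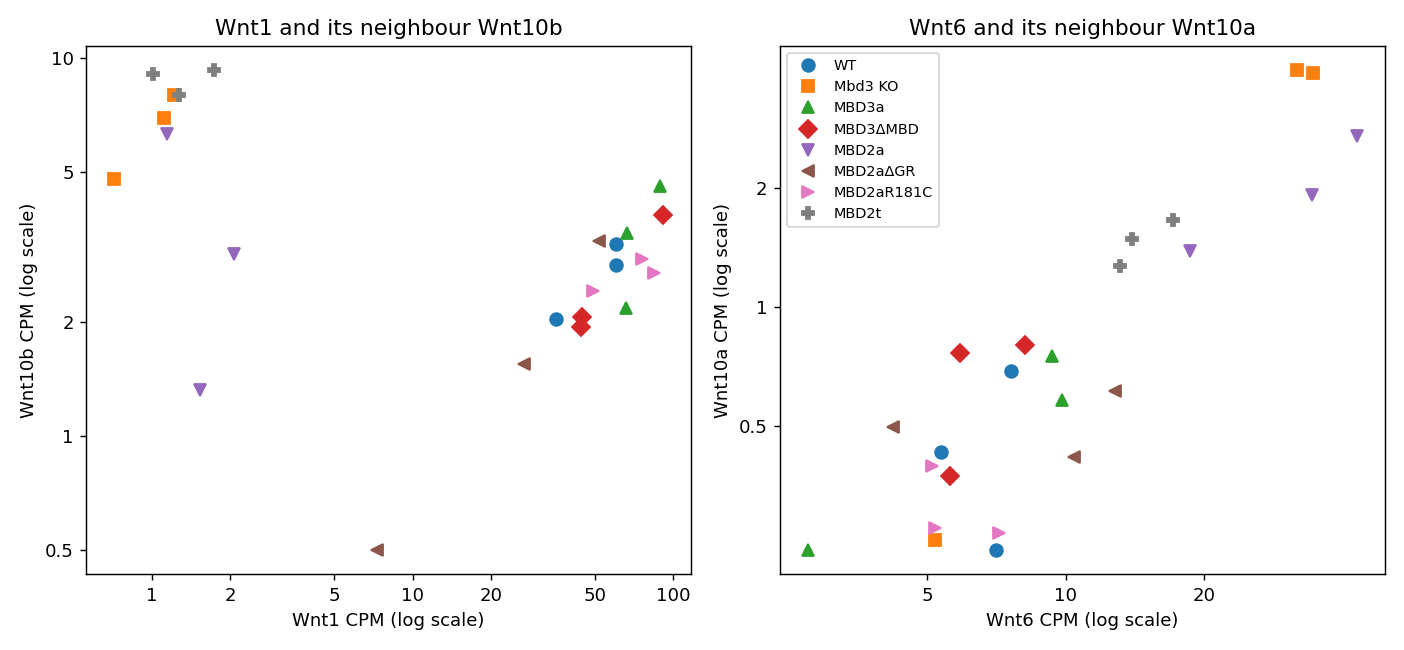
CPM of neighbouring ligand genes in each of the 24 libraries on log axes, Wnt1 against Wnt10b on the left and Wnt6 against Wnt10a on the right, with 1 symbol per line. Libraries of Mbd3 KO, MBD2t and the MBD2a label sit at the left of the first panel, at 2.06 CPM of Wnt1 or less, and all other libraries at 7.31 CPM or above. In the second panel 1 Mbd3 KO library sits among the WT libraries and the other 2 sit at the upper right.

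The 250 bases before the transcription start of Wnt1 and of Wnt10b are shown because these neighbours moved in opposite directions and because MBD2 binds methylated CpG. Both come from RefSeq, were matched exactly to build mm9 and are written 5′ to 3′ on the gene's own strand, with each CpG in capitals. The Wnt1 stretch (chr15:98620038-98620287, plus strand) holds 23 CpG and the Wnt10b stretch (chr15:98608582-98608831, minus strand) holds 14. DNA methylation was not analysed here.
Wnt1: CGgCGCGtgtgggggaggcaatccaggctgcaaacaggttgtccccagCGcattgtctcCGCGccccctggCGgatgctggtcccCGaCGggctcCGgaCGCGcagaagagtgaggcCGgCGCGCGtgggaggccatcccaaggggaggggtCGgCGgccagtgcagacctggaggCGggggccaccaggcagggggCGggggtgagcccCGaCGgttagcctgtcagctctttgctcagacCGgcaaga
Wnt10b: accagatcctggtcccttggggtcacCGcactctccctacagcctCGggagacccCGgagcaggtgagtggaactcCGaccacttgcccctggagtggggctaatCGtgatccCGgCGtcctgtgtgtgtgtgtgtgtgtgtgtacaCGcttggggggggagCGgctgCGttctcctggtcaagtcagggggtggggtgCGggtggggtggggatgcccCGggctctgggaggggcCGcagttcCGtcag

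Of the 41 genes, 29 had an entry among the RefSeq promoter windows, some with several starts. Genes on chromosome 18, where Fzd8 and Wnt8a lie, were then left out, and 35 stretches were kept. The set of all windows was not restricted in this way. The median number of CpG was 17 in these 35 stretches and 6 over all 32851 windows, and 17 of the 35 held at least 20 CpG, beside 17.95% of all windows. The stretch of Wnt1 was thus among the CpG-rich ones.

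Of the Frizzled receptors, the membrane-spanning proteins that bind Wnts, 6 of 10 were lower and 2 of 10 were higher in Mbd3 KO. Fzd3, needed for axon tract formation, had 141, 128 and 76.3 CPM in WT and 5.95, 11.8 and 10.98 CPM in Mbd3 KO (log2 fold change -3.58 ± 0.43 (SE), adjusted p = 1.96e-06). Fzd10, a receptor of the dorsal neural tube, had 165, 131 and 79.4 CPM in WT and 17.1, 14.6 and 12.4 CPM in Mbd3 KO (log2 fold change -3.09 ± 0.42 (SE), adjusted p = 6.37e-06). Neither gene's groups overlapped, though the Fzd10 counts are uncertain because a pseudogene model overlaps its exon on the same strand. Fzd9 had 7.43, 7.84 and 8.96 CPM in WT and 3.80, 2.21 and 1.61 CPM in Mbd3 KO (log2 fold change -1.68 ± 0.28 (SE), adjusted p = 5.3e-05). Fzd1 had 38.4, 37.2 and 24.1 CPM in WT and 6.43, 12.5 and 13.4 CPM in Mbd3 KO (log2 fold change -1.62 ± 0.31 (SE), adjusted p = 0.000189). The ranges of WT and Mbd3 KO were apart for both. Fzd2 (-1.12) and Fzd8 (-1.16) were also called lower.

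The receptors that were higher were Fzd5 and Fzd4. Fzd5, known from the early eye field and the yolk sac, had 8.13, 13.6 and 9.84 CPM in WT and 31.8, 35.8 and 41.6 CPM in Mbd3 KO (log2 fold change 1.79 ± 0.28 (SE), adjusted p = 2.51e-05). Fzd4, which also binds the non-Wnt ligand Norrin, had 10.7, 13.3 and 9.06 CPM in WT and 26.6, 27.2 and 27.6 CPM in Mbd3 KO (log2 fold change 1.30 ± 0.27 (SE), adjusted p = 0.000493). Both sets of Mbd3 KO libraries lay above all WT libraries. Fzd5 also lies on chromosome 1, and without Mbd3 KO library 1 its log2 fold change was 1.90. Fzd6 passed the p threshold with a log2 fold change of 0.92, and Fzd7, the main Frizzled of ESCs, had 119, 163 and 139 CPM in WT and 112, 151 and 158 CPM in Mbd3 KO, with overlapping groups and a log2 fold change of 0.00 ± 0.19 (SE).

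The Sfrp and Dkk families differed in direction: 3 of 4 Sfrp genes were lower, and 2 of 3 tested Dkk genes were higher in Mbd3 KO. Sfrp2 had 63.2, 86.4 and 67.2 CPM in WT and 4.57, 7.95 and 8.70 CPM in Mbd3 KO (log2 fold change -3.35 ± 0.40 (SE), adjusted p = 1.82e-06). Sfrp1 had 215, 182 and 148 CPM in WT and 19.1, 68.1 and 64.5 CPM in Mbd3 KO (log2 fold change -1.84 ± 0.43 (SE), adjusted p = 0.00125). Sfrp4, far less abundant, had 1.83, 1.76 and 2.05 CPM and 0.257, 0.266 and 0.0793 CPM, which are 3 to 12 counts per Mbd3 KO library (log2 fold change -3.19 ± 0.40 (SE), adjusted p = 2.92e-06). The groups did not overlap for any of these genes, whereas Sfrp5 was not called (-0.46 ± 0.66 (SE), adjusted p = 0.565).

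Dkk1, the best known antagonist of Lrp5 and Lrp6 and itself a Wnt target, was low in all libraries, at 0.242, 0.468 and 0.487 CPM in WT and 2.17, 1.37 and 1.38 CPM in Mbd3 KO (log2 fold change 2.01 ± 0.54 (SE), adjusted p = 0.00363). Dkk3, the divergent member of the family, had 12.1, 17.6 and 14.2 CPM in WT and 39.5, 40.2 and 38.9 CPM in Mbd3 KO (log2 fold change 1.43 ± 0.27 (SE), adjusted p = 0.000149). Every Mbd3 KO library was above every WT library for both genes. Dkk2, at 3.03, 2.20 and 1.05 CPM in WT and 0.543, 1.79 and 1.38 CPM in Mbd3 KO, overlapped between the lines and was not called (adjusted p = 0.179).

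Of the 4 target and feedback genes, Nkd1, Lef1 and Axin2 were lower and Sp5 was not called in Mbd3 KO. Nkd1, which binds Dishevelled and damps the signal, had 75.3, 66.0 and 39.3 CPM in WT and 7.12, 16.2 and 16.1 CPM in Mbd3 KO (log2 fold change -2.19 ± 0.35 (SE), adjusted p = 3.31e-05). Lef1, a TCF/LEF transcription factor that is also a target, had 9.04, 6.74 and 3.85 CPM in WT and 1.43, 2.61 and 2.57 CPM in Mbd3 KO (log2 fold change -1.55 ± 0.36 (SE), adjusted p = 0.00119). Axin2, the scaffold of the β-catenin destruction complex and a standard readout of the pathway, had 55.2, 55.3 and 33.7 CPM in WT and 17.7, 23.9 and 26.7 CPM in Mbd3 KO (log2 fold change -1.08 ± 0.25 (SE), adjusted p = 0.001). The groups were apart for these genes, but Axin2 sat at the fold change threshold: leaving out WT library 1, WT library 2 or Mbd3 KO library 1 gave log2 fold changes of -0.97, -0.96 and -0.90, which end its call with adjusted p-values of 0.00627, 0.00785 and 0.0108. Sp5, a zinc finger repressor induced by Wnt signalling, had 3.27, 3.71 and 2.95 CPM in WT and 2.77, 2.01 and 1.53 CPM in Mbd3 KO, where all Mbd3 KO libraries lay below all WT libraries without a call (log2 fold change -0.66 ± 0.30 (SE), adjusted p = 0.0637).

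The stretch before the start of Sp5 is shown because it was the only target gene here with the letters that TCF/LEF factors are known to prefer. CTTTGAT and CTTTGTT were searched on both strands in the 250 bases before each start, and matches are in capitals. The Sp5 stretch (chr2:70312730-70312979, plus strand, mm9, RefSeq) holds 1 match to each.
Sp5: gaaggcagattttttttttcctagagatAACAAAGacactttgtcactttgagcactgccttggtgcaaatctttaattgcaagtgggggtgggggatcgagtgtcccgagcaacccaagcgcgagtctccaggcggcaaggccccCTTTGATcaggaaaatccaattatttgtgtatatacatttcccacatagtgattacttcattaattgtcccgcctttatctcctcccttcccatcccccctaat

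Either motif was found in 5 of the 35 stretches, which belong to Dkk1, Fzd7, Sp5, Wnt11 and Wnt5b, beside 8.061% of all windows of this length. The stretches of Axin2, Lef1 and Nkd1 held neither.

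Beyond the families, other genes of the pathway in Mbd3 KO moved in both directions. Their counts stand beside the 19.6% of all genes called higher and 14.2% called lower in this comparison. Of 10 genes for ligand secretion and co-receptors, 1 was higher, Porcn, which acylates Wnts (log2 fold change 1.49, adjusted p = 0.000402). Of 9 agonists and regulators of receptor turnover, Rspo3 was higher (log2 fold change 1.24, adjusted p = 0.0381), while the R-spondin receptors Lgr5 (log2 fold change -2.04, adjusted p = 8.07e-05) and Lgr4 (log2 fold change -1.86, adjusted p = 1.03e-06) were lower. Of 11 tested further inhibitors, 3 were higher and 6 were lower, with Frzb (log2 fold change -3.61, adjusted p = 2.03e-06) and Sostdc1 (log2 fold change -2.96, adjusted p = 0.000692) among the lower and Dkkl1 (log2 fold change 2.64, adjusted p = 0.00025) and the Wnt deacylase Notum (log2 fold change 2.24, adjusted p = 4.04e-06) among the higher. Sostdc1 had a mean of 0.112 CPM in Mbd3 KO, near the floor, and of 0.889 CPM in WT.

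Of 16 intracellular transducers, the planar polarity genes Celsr2 (log2 fold change -4.35, adjusted p = 1.54e-06) and Vangl2 (log2 fold change -2.95, adjusted p = 4.98e-06) were lower and Prickle1 (log2 fold change 1.18, adjusted p = 0.00188) was higher, and β-catenin itself, Ctnnb1, was not called (log2 fold change 0.09, adjusted p = 0.389). Of 13 nuclear effectors, 3 were higher and 3 lower, with the repressive factor Tcf7l1 (log2 fold change 1.80, adjusted p = 6.12e-06) and the corepressor Tle2 (log2 fold change 1.18, adjusted p = 0.00102) among the higher and Pygo1 (log2 fold change -1.68, adjusted p = 0.000651) and Tle1 (log2 fold change -1.29, adjusted p = 2.46e-06) among the lower. Of 11 tested genes reported elsewhere as Wnt targets, 4 were higher and 4 were lower. The neural genes Sp8 (log2 fold change -6.94, adjusted p = 7.6e-09) and Msx1 (log2 fold change -4.55, adjusted p = 1.84e-07) were among the lower, and Cdx1 (log2 fold change 3.05, adjusted p = 0.00397) and Cdx2 (log2 fold change 1.90, adjusted p = 0.00585) were among the higher. Cdx2 is also one of the trophoblast markers used here.

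The next comparison asked how re-expression of MBD3a changed these genes in cells without endogenous Mbd3. In MBD3a, 14 of 39 Wnt genes were higher and 6 were lower than in Mbd3 KO, beside 13.5% and 18.9% of all genes tested. The comparison shares the Mbd3 KO libraries with that of Mbd3 KO against WT, so their values are given side by side only. Wnt1 was at 66.3, 88.7 and 66.0 CPM (log2 fold change 6.16 ± 0.59 (SE), adjusted p = 2.42e-07). Fzd3 was at 96.9, 105 and 130.1 CPM, Sfrp2 at 69.8, 56.1 and 63.4 CPM and Nkd1 at 80.2, 55.4 and 81.1 CPM, all far from the Mbd3 KO values above. Dkk3 was at 16.8, 12.9 and 8.23 CPM, below all Mbd3 KO libraries (log2 fold change -1.65 ± 0.27 (SE), adjusted p = 5.26e-05). Wnt10b, Wnt11 and Fzd4, which were higher in Mbd3 KO, were not called here (-0.95, -0.83 and -0.97). In the same comparison 9 of 9 neural progenitor markers were higher (summed 1717 to 2000.4 CPM in MBD3a), 3 of 8 mesenchyme markers were higher, and 8 of 8 pluripotency, 8 of 8 trophoblast and 1 of 10 endoderm markers were lower. Their part in the Wnt gene values was not tested.

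Set against WT, 3 of the lines showed no call among the Wnt genes. In MBD3a 0 of 39 were called, beside 0% of all genes; 1 had an unadjusted p under 0.05 and DESeq2 also called 0. In MBD3ΔMBD 0 of 39 were called, beside 0.0181% of all genes, with 1 at an unadjusted p under 0.05 and 0 by DESeq2. In MBD2aR181C 0 of 39 were called, beside 0.0181%, with 2 at an unadjusted p under 0.05 and 0 by DESeq2. Over all 16582 genes, 293 in MBD3a, 1187 in MBD3ΔMBD and 655 in MBD2aR181C had an unadjusted p under 0.05 by edgeR. The median absolute log2 fold change over the 39 genes was 0.21 in MBD3a, 0.29 in MBD3ΔMBD and 0.26 in MBD2aR181C. Over all genes it was 0.10, 0.17 and 0.13. Wnt1 was at 91.4, 44.8 and 44.4 CPM in MBD3ΔMBD and 84.5, 49.3 and 76.0 CPM in MBD2aR181C, and Axin2 at 64.6, 49.9 and 63.0 and 58.0, 45.3 and 48.2 CPM. Both genes overlapped WT in both lines. Fzd10 (0.13 ± 0.38 and 0.32 ± 0.38) and Sfrp2 (-0.15 ± 0.36 and -0.75 ± 0.36, SE) were not called in MBD3ΔMBD and MBD2aR181C. Sfrp2 was at 52.9, 38.0 and 37.5 CPM in MBD2aR181C, below every WT library (63.2, 86.4 and 67.2 CPM).

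**Figure D3:**
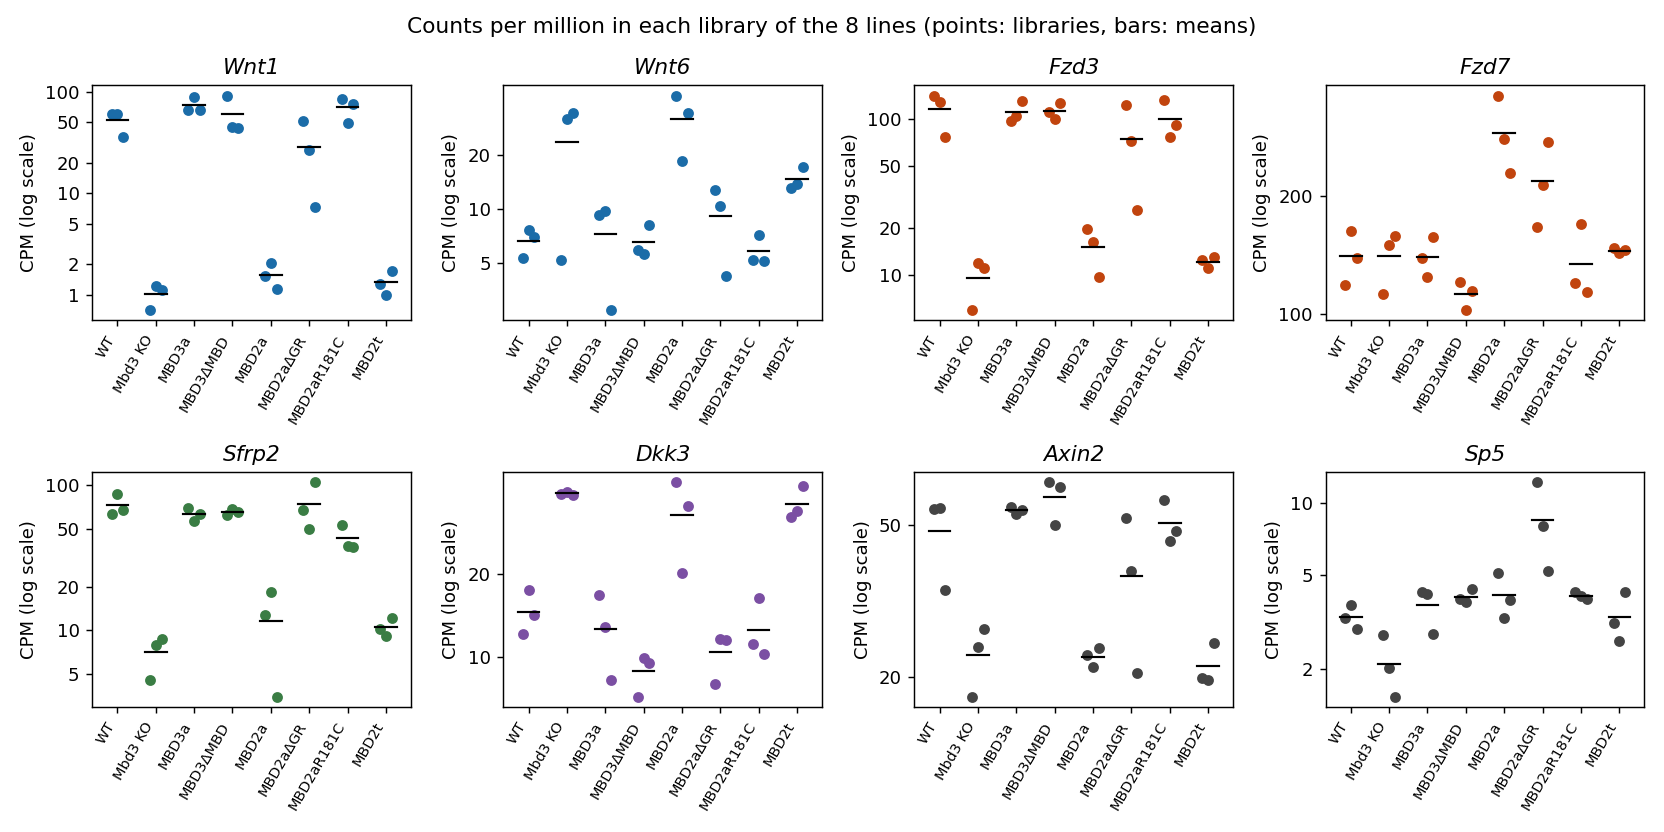
CPM on log axes of 8 Wnt genes in each library (points) with the mean of each line (bars), for the 8 lines on the x axis. Wnt1, Fzd3, Sfrp2 and Axin2 are low and Dkk3 is high in Mbd3 KO, in the libraries labelled MBD2a and in MBD2t. Fzd7 is highest in the libraries labelled MBD2a, and Sp5 in MBD2aΔGR, whose libraries spread widely for Wnt1 and Fzd3.

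The libraries labelled MBD2a and those of MBD2t differed from WT at many Wnt genes. In the libraries labelled MBD2a, 8 of 39 were higher and 14 were lower than in WT, beside 16.9% and 13.7% of all genes. In MBD2t, 7 were higher and 14 lower, beside 18.2% and 15.1% of all genes. These comparisons share the WT libraries with that of Mbd3 KO, so they are given side by side only. Wnt1 was at 1.53, 2.06 and 1.15 CPM in the libraries labelled MBD2a (log2 fold change -5.05 ± 0.56 (SE), adjusted p = 1.83e-06) and at 1.27, 1.01 and 1.74 CPM in MBD2t (log2 fold change -5.26 ± 0.56 (SE), adjusted p = 5.98e-07). Fzd3 was at 19.5, 16.2 and 9.63 and 12.3, 11.03 and 13.04 CPM, and Sfrp2 at 12.7, 18.5 and 3.52 and 10.3, 9.20 and 12.2 CPM. Axin2 was at 22.8, 21.2 and 23.7 CPM in the libraries labelled MBD2a and 19.8, 19.6 and 24.5 CPM in MBD2t, all below the WT libraries.

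Markers of several cell types moved in the same comparisons with WT. In the libraries labelled MBD2a, 9 of 9 neural progenitor markers (summed 108 to 263 CPM) and 6 of 8 mesenchyme markers (53.6 to 94.7 CPM) were lower, and 7 of 8 pluripotency (423 to 763 CPM), 5 of 8 trophoblast (112 to 551 CPM) and 5 of 10 endoderm markers (626 to 3605 CPM) were higher. In MBD2t, 9 of 9 neural progenitor markers (187 to 209 CPM) and 4 of 8 mesenchyme markers (78.4 to 85.9 CPM) were lower, 8 of 8 pluripotency (617 to 776 CPM) and 8 of 8 trophoblast markers (483 to 577 CPM) were higher, and of 10 endoderm markers 1 was higher and 1 was lower. Their part in the Wnt gene values was not tested.

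**Figure D4:**
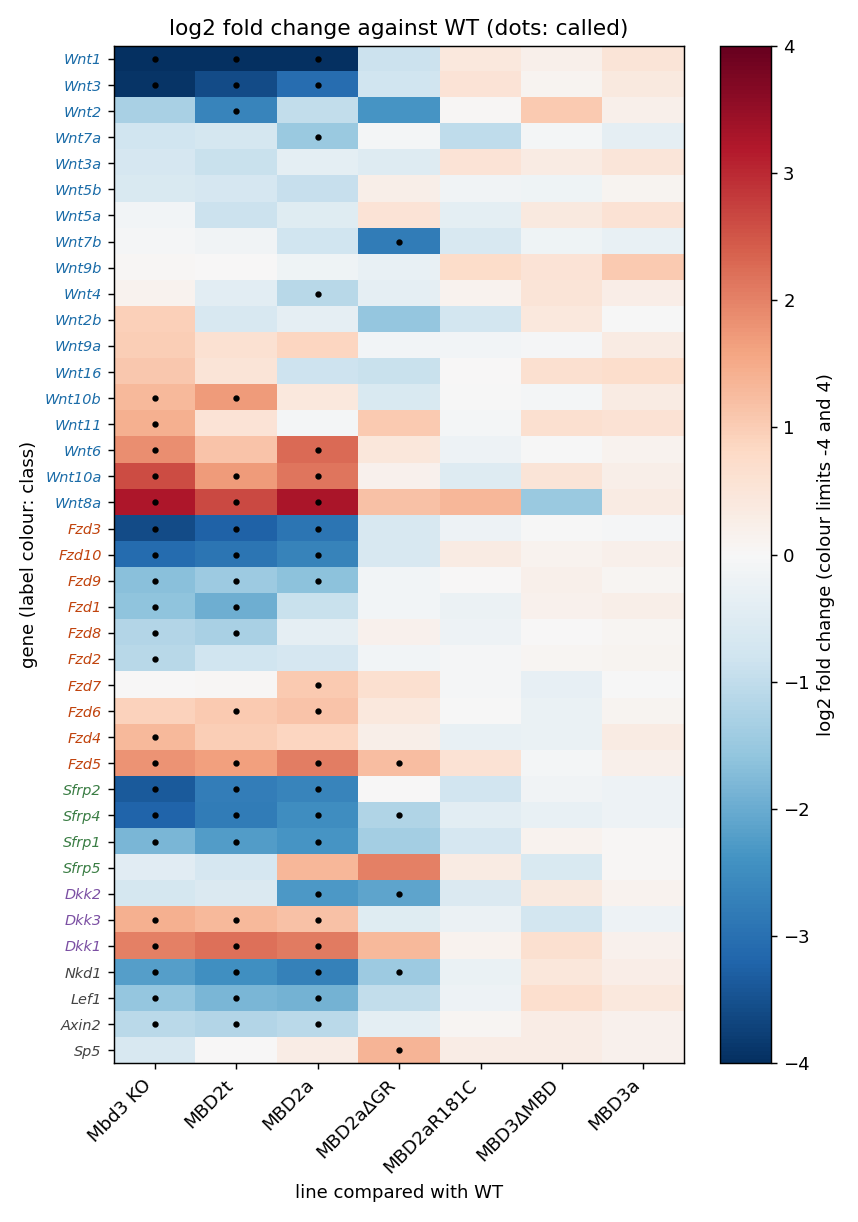
Log2 fold change against WT (colour, limited to -4 and 4) of the 39 Wnt genes (rows, grouped by class) in the 7 other lines (columns), with a dot on each called value. The columns of Mbd3 KO, MBD2t and the MBD2a label carry 23, 21 and 22 dots, MBD2aΔGR carries 6 and the other lines carry none.

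Direct tests against Mbd3 KO show where the libraries labelled MBD2a and MBD2t differed from it. In those labelled MBD2a, 1 of 39 Wnt genes was higher and 2 were lower than in Mbd3 KO, beside 0.856% and 4.4% of all genes. Fzd7 had 363, 280.5 and 230.0 CPM, above all Mbd3 KO libraries and above all WT libraries (log2 fold change 1.05 ± 0.20 (SE), adjusted p = 0.00192). Wnt11 had 4.84, 2.98 and 4.66 CPM, below all Mbd3 KO libraries and overlapping WT (log2 fold change -1.48 ± 0.38 (SE), adjusted p = 0.0182). Wnt4 had 17.7, 7.51 and 13.8 CPM, overlapping Mbd3 KO library 1 only (log2 fold change -1.26 ± 0.30 (SE), adjusted p = 0.0121). Fzd7 lies on chromosome 1, whose genes had a median log2 deviation from the other libraries of their line of -0.35 to 0.27 in Mbd3 KO and of -0.39 to 0.19 in the libraries labelled MBD2a. Its log2 fold change was 0.90 without Mbd3 KO library 1 and 0.85 without library 1 labelled MBD2a, which ends the call. It was 1.19 without library 3 labelled MBD2a, and 1.04 without the 3 libraries left out together above. The calls of Wnt11 and Wnt4 were lost without Mbd3 KO library 2, Mbd3 KO library 3 or library 2 labelled MBD2a (adjusted p from 0.0573 to 0.0959 for Wnt11 and from 0.0515 to 0.0846 for Wnt4). In this comparison 3 of 9 neural progenitor markers were higher, and 3 of 8 trophoblast and 2 of 8 mesenchyme markers were lower. The part of chromosome 1 and of these markers was not tested.

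The count of called Wnt genes between the libraries labelled MBD2a and Mbd3 KO was 0 when only these 2 lines were fitted. It was 8 without library 3 labelled MBD2a and 5 without Mbd3 KO library 1. It was 1 without Mbd3 KO library 2, Mbd3 KO library 3 or library 2 labelled MBD2a, and 7 without the 3 libraries left out together above. In MBD2t, 0 of 39 were called against Mbd3 KO by edgeR, beside 0.0241% of all genes. An unadjusted p under 0.05 was found for 2 of the 39, beside 571 of all 16582 genes. DESeq2 called 0, and edgeR called 1 without Mbd3 KO library 1.

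The libraries labelled MBD2a were next compared with the MBD2a variants. Against MBD2aR181C, 9 of 39 Wnt genes were higher and 13 were lower in the libraries labelled MBD2a, beside 15.1% and 12.2% of all genes. Wnt1 (log2 fold change -5.48 ± 0.56 (SE), adjusted p = 1.44e-06), Wnt3 (log2 fold change -3.61 ± 0.40 (SE), adjusted p = 2.37e-06) and Fzd10 (log2 fold change -2.97 ± 0.41 (SE), adjusted p = 1.88e-05) were lower, and Wnt10a (log2 fold change 2.67 ± 0.67 (SE), adjusted p = 0.00293) and Wnt6 (log2 fold change 2.46 ± 0.54 (SE), adjusted p = 0.00107) were higher. In MBD2aR181C Wnt6 was at 5.18, 7.16 and 5.11 CPM, and in the libraries labelled MBD2a it was at 43.1, 18.7 and 34.3 CPM, with no overlap. Axin2 (-1.16), Lef1 (-1.71) and Nkd1 (-2.44) were lower as well, while Sp5 was not called (0.01). In this comparison 9 of 9 neural progenitor and 5 of 8 mesenchyme markers were lower, and 7 of 8 trophoblast, 4 of 8 pluripotency and 5 of 10 endoderm markers were higher. Mbd2 reads were lower by a log2 fold change of -1.79 ± 0.22 (SE). Their part in the Wnt gene values was not tested.

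Against MBD2aΔGR, 4 of 39 Wnt genes were higher and 12 were lower in the libraries labelled MBD2a, beside 10.6% and 8.02% of all genes. When only these 2 lines were fitted, 3 were higher and 6 lower. Wnt1 (log2 fold change -4.18 ± 0.55 (SE), adjusted p = 3.36e-05), Sfrp2 (log2 fold change -2.67 ± 0.39 (SE), adjusted p = 7.19e-05) and Fzd3 (log2 fold change -2.29 ± 0.41 (SE), adjusted p = 0.000407) were lower, and Dkk3 was higher (log2 fold change 1.67 ± 0.27 (SE), adjusted p = 0.000187). Wnt7b was higher in the libraries labelled MBD2a, at 11.3, 24.3 and 54.6 CPM, than in MBD2aΔGR, at 14.6, 4.35 and 3.57 CPM (log2 fold change 2.01 ± 0.50 (SE), adjusted p = 0.00459). The groups overlapped, with library 1 of MBD2aΔGR above library 1 labelled MBD2a, and the call was lost with only these 2 lines fitted (adjusted p = 0.117). In this comparison 9 of 9 neural progenitor and 2 of 10 endoderm markers were lower, and 5 of 8 trophoblast, 3 of 8 pluripotency and 1 of 8 mesenchyme markers were higher. Their part in the Wnt gene values was not tested.

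MBD2aΔGR differed from WT at 6 of 39 Wnt genes, 2 higher and 4 lower, beside 2.69% and 2.47% of all genes. Sp5 had 12.2, 8.01 and 5.18 CPM, above every WT library (log2 fold change 1.35 ± 0.27 (SE), adjusted p = 0.00873). Fzd5 had 20.9, 28.4 and 24.4 CPM and was also above every WT library (log2 fold change 1.23 ± 0.28 (SE), adjusted p = 0.0168). Nkd1 had 31.7, 23.1 and 11.7 CPM, below every WT library (log2 fold change -1.44 ± 0.34 (SE), adjusted p = 0.0193), so that these 2 target genes were called in opposite directions.

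Wnt7b, a ligand of the forebrain and of several epithelia, had 14.6, 4.35 and 3.57 CPM in MBD2aΔGR, against 39.1 CPM in the lowest WT library (log2 fold change -2.81 ± 0.51 (SE), adjusted p = 0.00476). Dkk2 had 0.522, 0.745 and 0.194 CPM (log2 fold change -2.10 ± 0.55 (SE), adjusted p = 0.027). Sfrp4 had 1.01, 1.01 and 0.443 CPM (log2 fold change -1.20 ± 0.32 (SE), adjusted p = 0.0279). All MBD2aΔGR libraries lay below all WT libraries for these genes. Wnt1 itself was spread from 7.31 to 51.7 CPM in MBD2aΔGR and Fzd10 from 23.2 to 140 CPM, with library 3 lowest for both, and Sfrp5 had 88.1 CPM in library 3 against 9.49 and 9.20 CPM in libraries 1 and 2.

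The number of calls in MBD2aΔGR rested on single libraries. It was 13 without MBD2aΔGR library 1, 2 without library 3, 2 without WT library 1, 3 without WT library 2, and 0 when only the 2 lines were fitted. Without library 3 of MBD2aΔGR and the 2 libraries left out together with it above, it was 2. In the same comparison 9 of 10 endoderm markers were higher (summed 999 to 17232 CPM) and 5 of 8 mesenchyme markers were lower (25.9 to 60.5 CPM against 126 to 466 CPM in WT), while 1 of 9 neural progenitor markers was lower. Their part in the Wnt gene values was not tested.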

How the data were processed

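Poly(A) RNA-seq of 24 NPC libraries, 3 for each of 8 lines, was analysed, and the chromatin immunoprecipitation samples of the series were not analysed here. The authors trimmed reads with Trim Galore 0.6.6, aligned them to the mouse genome (mm9) with STAR and counted them per gene with QuasR, and the deposited table holds raw whole-number counts for 25400 genes. Columns were assigned to lines by their names, which carry no replicate numbers. The table holds 27993858 to 49392806 counts per library.

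Counts were analysed with edgeR 4.0.16 in R 4.3.3. Genes with low counts were removed (filterByExpr by line, 16582 kept), libraries were scaled by TMM, all 24 libraries entered 1 quasi-likelihood fit with the line as the only term, and contrasts were tested with the quasi-likelihood F test with Benjamini-Hochberg adjustment over all genes kept. Calls needed an adjusted p under 0.05 together with a log2 fold change beyond 1 in either direction, as in the study. CPM values use TMM-scaled library sizes, and 3 counts were taken as the floor for a library, which covers counting error only. The procedure was tested on simulated data.

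The Wnt genes were defined by symbol, and these members, the pathway and marker lists and the tests were chosen with earlier results of these data known. Values in every library are given for the 4 target genes, for called genes of each class in Mbd3 KO against WT (up to 6 with the largest change and a mean of at least 1 CPM in either line), for genes called in MBD3a, MBD3ΔMBD, MBD2aΔGR or MBD2aR181C against WT, and for genes called between MBD2a and Mbd3 KO. Of the other pathway genes, up to 4 of each list with the largest change among those called are named. Wnt10b, Ctnnb1, Sfrp5 and a few others outside these rules were named after their values were seen. Positions and exon lengths come from GENCODE vM1 (mm9), promoter sequences from RefSeq. Alternatives were RLE scaling, other filters, DESeq2 1.42.0, the legacy quasi-likelihood test, fits of fewer lines, no fold change threshold and each library left out.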

Additional observations from a re-analysis of the deposited data

Results flagged for a closer look

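In the fits of MBD2a against its variants, the following Wnt genes were called in the libraries labelled MBD2a against MBD2aΔGR and against MBD2aR181C, each by a direct edgeR test of the difference between the lines. All were called in the same direction in both. How many of all genes tested met this rule was not counted, so the list has no background share. The shares given above are for each comparison alone. The libraries labelled MBD2a enter both comparisons, so these are not independent, and the Mbd2 reads of these libraries were lower than in either variant. With only the 2 lines fitted, Wnt6, Fzd10, Sfrp4 and Nkd1 lost their call against MBD2aΔGR (adjusted p from 0.0537 to 0.109).

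Of the ligands, Wnt1 differed by -4.18 (MBD2a minus MBD2aΔGR, log2) and -5.48 (MBD2a minus MBD2aR181C, log2), Wnt3 by -2.25 and -3.61, Wnt6 by 1.81 and 2.46, and Wnt10a by 1.97 and 2.67. Of the receptors, Fzd3 differed by -2.29 and -2.74, Fzd9 by -1.54 and -1.67, and Fzd10 by -2.02 and -2.97. Of the Sfrp, Dkk and target genes, Sfrp2 differed by -2.67 and -1.90, Sfrp4 by -1.28 and -2.07, Dkk3 by 1.67 and 1.40, and Nkd1 by -1.26 and -2.44.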

How the results depend on the processing

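The number of Wnt genes called in Mbd3 KO, MBD2a and MBD2t against WT, in MBD3a against Mbd3 KO and in MBD2a against MBD2aR181C stayed within 1.5 times its value under every alternative run. With only the compared lines in the fit, the counts were 0 for MBD2aΔGR against WT, 0 for MBD2a against Mbd3 KO and 9 for MBD2a against MBD2aΔGR. DESeq2 gave 5 for MBD2a against Mbd3 KO. Leaving out 1 library gave 2 to 13 for MBD2aΔGR against WT, 1 to 8 for MBD2a against Mbd3 KO, 12 to 20 for MBD2a against MBD2aΔGR and 0 to 1 for MBD2t against Mbd3 KO. Without Mbd3 KO library 1, library 3 labelled MBD2a and MBD2aΔGR library 3, an alternative chosen after seeing the data, these counts were 2 for MBD2aΔGR against WT, 7 for MBD2a against Mbd3 KO and 2 for MBD2t against Mbd3 KO. Fewer libraries enter these fits, and otherwise the cause was not tested. The signs of 3 genes not called in Mbd3 KO against WT changed: Wnt7b was at 0.0018 with RLE scaling and 0.0024 with DESeq2, and leaving out 1 library gave -0.36 to 0.10 for Wnt7b, -0.14 to 0.48 for Wnt4 and -0.11 to 0.16 for Fzd7. Of the named genes called in Mbd3 KO against WT, Axin2 and Wnt8a lost their calls under some alternatives. No paired analysis was possible because the columns carry no replicate numbers. Depth limits Dkk4, Wnt8b, Wnt16, Wnt2, Wnt9b, Wnt8a, Sfrp4, Dkk1 and Wnt10a, which had few counts in many libraries. It also limits Dkk2 in MBD2aΔGR, at 7 to 25 counts per library.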
